A study of Mus musculus with 4 samples.

Results

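The spots described here are the 1014 Visium spots richest in Spp1 among spots without a duct keratin, of 56869 spots listed in 4 sections of mouse pancreas with caerulein-induced acute pancreatitis. They were chosen in each section from the pool of spots with at least 500 UMIs (unique molecular identifiers, each counting 1 captured probe molecule) and no UMI of Krt19 or Krt7, by ranking the Spp1 UMIs as a share of all UMIs of the spot and keeping up to 300 spots with at least 2 Spp1 UMIs. The pool held 17067 spots, so that 16053 other spots served for comparison. All mice were C57Bl/6 and carried Pdx1-Cre, which is active in the pancreatic epithelium, and received caerulein at 50 µg/kg in 8 hourly intraperitoneal injections, with euthanasia 18 h after the first. Mice were 4 weeks old and had been fasted before the first injection. Sections 1 and 2 of the first group are labelled as Pdx1-Cre alone (Ehmt2+/+), and sections 1 and 2 of the second as Ehmt2 knockout with Pdx1-Cre (Ehmt2 fl/fl), in which the allele is lost from the Pdx1 lineage while immune, vascular and mesenchymal cells keep it. Each section title carries its own number, and each group had n = 2 sections.

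Spp1 encodes osteopontin, a secreted phosphorylated glycoprotein of the extracellular matrix that binds integrins and CD44 and is cleaved by thrombin and by matrix metalloproteinases. In the pancreas it is a known product of duct cells, in which Krt19 and Krt7 form the intermediate filaments, and it is also made by activated macrophages and by injured epithelium. A Visium spot covers several cells, so an Spp1-rich spot without a keratin UMI may hold any of these in a mixture with acinar cells, and its content is described below from genes that the choice of spots did not use.

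Spp1 (ENSMUSG00000029304, chr5:104435118-104441050 on the plus strand of GRCm38, the build named mm10 in the files) chose the spots, and its values are given as a description. The Ehmt2+/+ sections gave 300 and 114 Spp1-rich spots and the Ehmt2 fl/fl sections 300 each. In Ehmt2+/+ section 2 every pool spot with 2 or more Spp1 UMIs was taken, whereas 312, 1022 and 704 spots met that condition in the other sections, in the order Ehmt2+/+ section 1, Ehmt2 fl/fl section 1 and Ehmt2 fl/fl section 2. The median score was 4.03 Spp1 UMIs per 10000 UMIs in Ehmt2+/+ section 1, 20.8 in Ehmt2+/+ section 2, 37.4 in Ehmt2 fl/fl section 1 and 26.4 in Ehmt2 fl/fl section 2. The last spot inside and the first spot outside stood at 1.74 and 1.70 per 10000 in Ehmt2+/+ section 1, at 29.90 and 29.85 in Ehmt2 fl/fl section 1 and at 20.07 and 19.97 in Ehmt2 fl/fl section 2, so that no gap separated Spp1-rich spots from the rest. These spots made up 14.0%, 1.94%, 6.52% and 6.75% of the pool and held Spp1 at 403.4, 1846, 3984 and 2759 CPM (UMIs per 1000000 UMIs), against 79.3, 124, 708 and 450.4 in the other spots, in the order Ehmt2+/+ sections 1 and 2 and Ehmt2 fl/fl sections 1 and 2. Exactly 2 Spp1 UMIs were found in 175, 100, 48 and 136 of the spots of the 4 sections (Ehmt2+/+ first), and the highest counts were 7, 5, 9 and 12.

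The depth of the sections differed and entered the choice. The sections held 44520453, 8914187, 7195548 and 8685493 UMIs in all, in the same order. Spp1-rich spots had a median of 6428 UMIs against 2542 in other spots in Ehmt2+/+ section 1, 1034.5 against 847 in Ehmt2+/+ section 2, 908 against 958 in Ehmt2 fl/fl section 1 and 968 against 1049 in Ehmt2 fl/fl section 2. They were thus much deeper than the other spots in Ehmt2+/+ section 1 and slightly shallower in both Ehmt2 fl/fl sections. The tissue marks of the image files carry no barcodes and could not be joined to the counts. In Ehmt2+/+ section 1 more spots reached 500 UMIs (6147) than there were positions marked as tissue (5818), so some of them lay outside the marked tissue.

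Absence of a keratin UMI is also a matter of depth. A Krt19 or Krt7 UMI was found in 65.2%, 25.6%, 29.2% and 31.5% of spots with at least 500 UMIs in the 4 sections (Ehmt2+/+ first), but when each spot was reduced to 500 UMIs the expected shares were 9.95%, 14.4%, 15.9% and 14.99%. At the depth of these spots, a keratin count of 0 does not show that keratin transcripts were absent. Spp1 itself was present in the pool outside the chosen spots: 26.9% and 11.8% of the other spots in the Ehmt2+/+ sections and 49.6% and 39.3% in the Ehmt2 fl/fl sections had at least 1 Spp1 UMI. Over the whole pool, Spp1 stood at 156 and 165 CPM in the Ehmt2+/+ sections (mean 160.3 ± 6.0, SD, n = 2) and at 906 and 596 in the Ehmt2 fl/fl sections (mean 751 ± 219, SD, n = 2). Both Ehmt2 fl/fl sections were above both Ehmt2+/+ sections, an order in CPM that 91.0% of 19943 genes also had in the other spots of the pool and 66.3% in Spp1-rich spots. CPM are shares of all UMIs, and digestive enzymes took up a larger part of them in the Ehmt2+/+ sections, as given below. The background of the assay also differed, taken from olfactory receptor genes, which the pancreas is not known to use. They summed to 381, 6135, 11123 and 15162.5 CPM in Spp1-rich spots (Ehmt2+/+ first) and to 454, 6041, 10193 and 15347 in other spots. The part of this background in the levels of scarce genes was not tested.

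The Spp1 excess of spots chosen by the same score was smaller in UMIs that had no part in the choice. When the UMIs of each spot were divided at random into 2 equal parts and the spots were chosen on the first part, their Spp1 level exceeded that of the other spots 5.94-fold, 25.9-fold, 7.73-fold and 7.31-fold in the choosing part (Ehmt2+/+ sections first). In the part not used for the choice the excess was 1.68-fold in Ehmt2+/+ section 1 (95% counting interval 1.35 to 2.07), 2.06-fold in Ehmt2+/+ section 2 (0.824 to 4.28), 1.73-fold in Ehmt2 fl/fl section 1 (1.49 to 1.98) and 1.66-fold in Ehmt2 fl/fl section 2 (1.42 to 1.94). The first part chose 120, 37, 300 and 263 spots (Ehmt2+/+ first), of which 119, 37, 152 and 134 were among the Spp1-rich spots described here. In the spots chosen this way an Spp1 excess thus remained in 3 of 4 sections beyond the counting error within a section. It was not detectable at the depth of Ehmt2+/+ section 2, where 7 Spp1 UMIs carried it. The excess of the full set of Spp1-rich spots was not tested.

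**Figure D1:**
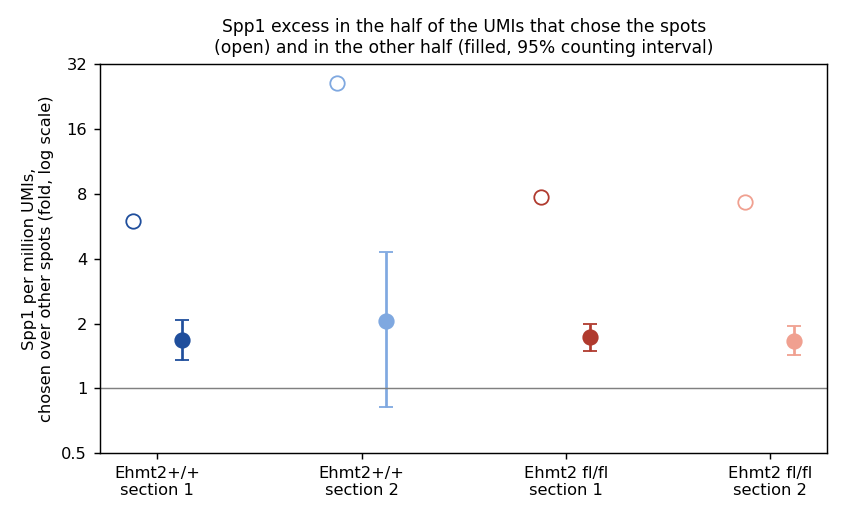
Spp1 level in chosen spots over other spots of the pool (fold, log scale) in each of the 4 sections, when spots were chosen on 1 of 2 equal random parts of their UMIs. Open symbols stand for the choosing part (5.94 to 25.9-fold), and filled symbols with 95% counting intervals for the other part (1.66 to 2.06-fold), which lies far lower in every section.

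Against the other spots of the pool, Mmp7, Lcn2 and Scara3 were higher in Spp1-rich spots, and the genes called lower included Ighj1, Igkc, Ighm, Hba-a2, Hbb-bs and Car3. Of 19943 genes tested, 14 (0.0702%) passed an adjusted p of 0.05 in edgeR's quasi-likelihood test on sums per section with the section as a block, 3 of them higher in Spp1-rich spots (0.015%) and 11 lower (0.0552%). The median log2 fold change over all genes was -0.14 with TMM scaling and 0.01 with library sizes alone, where 10 genes were higher and 9 lower. The 14 genes kept their direction under each of the alternatives that fitted them, while the number of calls varied between 0 and 19. No gene was called when the section was not a block, and Ighj1 alone when spots were chosen on 1 random part of their UMIs and measured on the other.

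Mmp7 (ENSMUSG00000018623, chr9:7692090-7699585, plus strand), the matrilysin that cleaves osteopontin and is made by metaplastic pancreatic epithelium, stood at 7.09 CPM in Spp1-rich spots against 1.57 in other spots of Ehmt2+/+ section 1, 22.8 against 14.4 in Ehmt2+/+ section 2, 766 against 410 in Ehmt2 fl/fl section 1 and 821 against 459 in Ehmt2 fl/fl section 2. It was higher in the Spp1-rich spots of all 4 sections, although the Ehmt2+/+ values rest on 14 and 3 UMIs, and its log2 fold change was 0.87 (SE 0.18, adjusted p = 0.00148). Lcn2 (ENSMUSG00000026822, chr2:32384633-32388252, minus strand), the iron-siderophore binding lipocalin of injured epithelium and neutrophils, stood at 32.9 against 15.1, 53.1 against 31.2, 422 against 235 and 364 against 222 CPM in the same order, again higher in all 4 sections (log2 fold change 0.73, SE 0.17, adjusted p = 0.0262). Scara3 (ENSMUSG00000034463, chr14:65919394-65953935, minus strand), a scavenger receptor-like membrane protein linked to oxidative stress, stood at 51.6 against 35.0, 83.4 against 56.3, 638 against 326 and 725 against 375.5 (log2 fold change 0.67, SE 0.15, adjusted p = 0.0203). All 3 genes had higher CPM in both Ehmt2 fl/fl sections than in both Ehmt2+/+ sections, as 66.3% of the 19943 genes did in Spp1-rich spots and 91.0% in other spots. All 3 calls were also made by DESeq2 and with other spots matched on depth, but none was made when either Ehmt2 fl/fl section was left out, and without Ehmt2+/+ section 2 Mmp7 was the only 1 of the 3 called. At 500 UMIs, Mmp7 was expected in 0.44%, 1.35%, 27.6% and 28.1% of Spp1-rich spots and in 0.09%, 0.80%, 16.9% and 18.7% of other spots, higher in 4 of 4 sections (mean difference 5.27 ± 5.59 percentage points, SD, n = 4; exact two-sided sign-flip p = 0.125, the smallest that 4 sections allow).

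Transcripts of B cells were lower in Spp1-rich spots. Ighj1, a joining segment of the immunoglobulin heavy chain locus, stood at 1.01 CPM in Spp1-rich spots against 1.73 in other spots of Ehmt2+/+ section 1, at 7.58 against 34.0 in Ehmt2+/+ section 2, at 25.7 against 198 in Ehmt2 fl/fl section 1 and at 72.9 against 825 in Ehmt2 fl/fl section 2 (log2 fold change -3.23, SE 0.27, adjusted p = 1.06e-27). Igkc, the kappa light chain constant region, had a log2 fold change of -2.51 (SE 0.35, adjusted p = 4.04e-09), and Ighm, the constant region of IgM that lies in the same locus as Ighj1, one of -2.32 (SE 0.37, adjusted p = 1.52e-06). Igkc and Ighm were lower in the Spp1-rich spots of all 4 sections. Cd79a, the signalling chain of the B cell receptor, was called lower as well but stood higher in the Spp1-rich spots of Ehmt2+/+ section 2, where it had 3 UMIs. DESeq2 called none of Ighj1, Igkc, Ighm and Cd79a, although their fitted direction stayed the same. The counts were low, with 2, 1, 7 and 23 Ighj1 UMIs in the Spp1-rich spots of the 4 sections and at most 9 UMIs of Igkc, Ighm or Cd79a in any of them.

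Car3, a carbonic anhydrase abundant in fat, stood at 1.52 against 14.1, 30.3 against 34.7, 40.3 against 80.8 and 41.2 against 256 CPM (log2 fold change -2.13, SE 0.27, adjusted p = 3.96e-11) and was lower in every section. Hp, the haemoglobin-binding acute phase protein haptoglobin, had a log2 fold change of -1.18 (SE 0.28, adjusted p = 0.0396) and 0 UMIs in the Spp1-rich spots of Ehmt2+/+ section 2. Called by the test but outside the rule for named genes, because they were not lower in all 4 sections or were scarce, were the globins Hbb-bs and Hba-a2, the lipoxygenase Alox15, the endoglycosidase Engase and the acinar elastase Cela2a, besides Cd79a, and these are named here after their values were seen. Cela2a (log2 fold change -0.46, SE 0.11, adjusted p = 0.0215) was no longer called with library sizes in place of TMM. Of the genes in this paragraph, DESeq2 called Car3 alone.

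**Figure D2:**
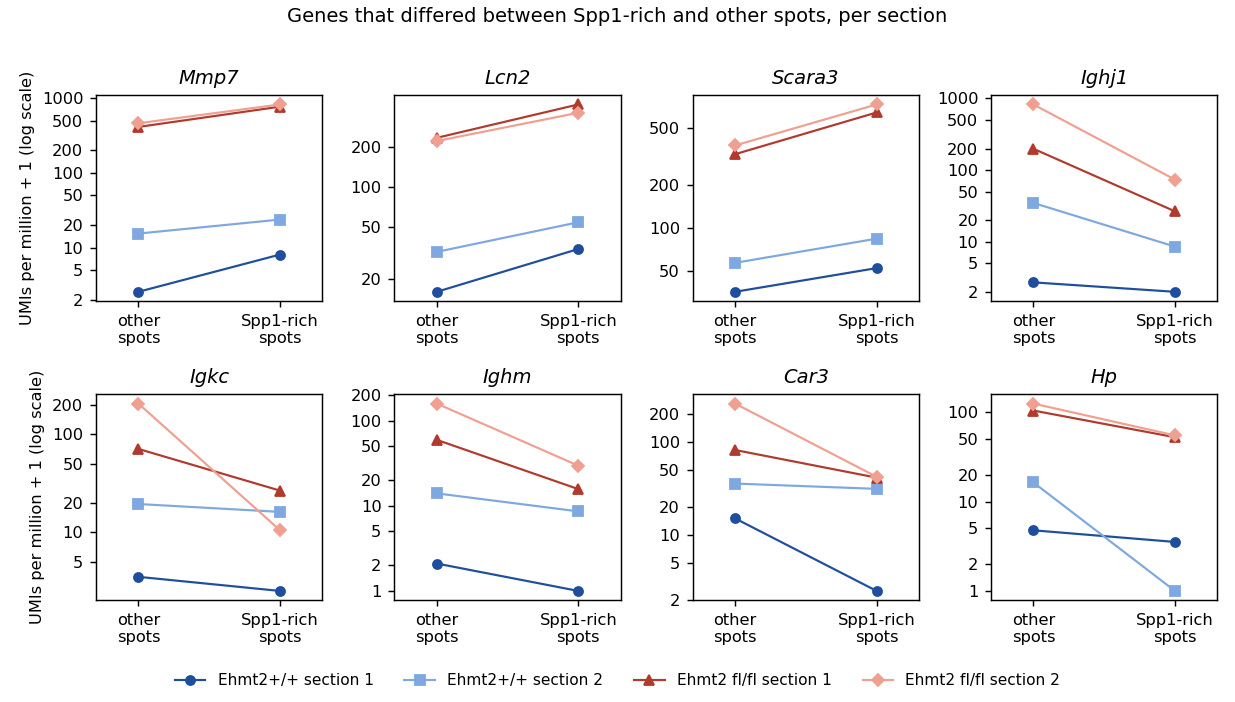
CPM plus 1 (log scale) in other spots and in Spp1-rich spots of the pool for the 8 genes named by the rule, with a line for each of the 4 sections. Mmp7, Lcn2 and Scara3 are higher and the remaining 5 genes lower in Spp1-rich spots of every section, and the Ehmt2 fl/fl sections lie above the Ehmt2+/+ sections in other spots for all 8 genes, as for 91.0% of all tested genes.

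In both Ehmt2 fl/fl sections the 3 higher genes changed stepwise with the number of Spp1 UMIs in a spot, which is given here as a description. Scara3 also changed stepwise in Ehmt2+/+ section 1, with 34.5, 35.4, 45.8 and 55.0 CPM in spots with 0, 1, 2 and 3 or more Spp1 UMIs, and in Ehmt2+/+ section 2 it went from 53.5 to 71.9 and 86.3 and stood at 59.6 in the 14 spots with 3 or more. Lcn2 stood at 14.8, 13.8, 28.8 and 37.7 CPM in Ehmt2+/+ section 1 and at 30.01, 37.98, 60.4 and 0 in Ehmt2+/+ section 2. The Ehmt2+/+ sections showed no such order for Mmp7, with 1.79, 1.296, 7.63 and 5.10 CPM in section 1 and 14.7, 12.2, 25.9 and 0 CPM in section 2 in the same classes. In Ehmt2 fl/fl section 1, Mmp7 stood at 298 CPM in pool spots with no Spp1 UMI, 432 with 1, 566 with 2 and 779 with 3 or more. In Ehmt2 fl/fl section 2 the values were 370, 510, 611 and 859. Scara3 went from 278 to 590 and from 322 to 655, and Lcn2 from 183 to 424 and from 188 to 375, between spots with no Spp1 UMI and those with 3 or more in the same sections. Epcam, an adhesion molecule of epithelial cells, went from 1257 to 1625 and from 980 to 1459. Ighj1 was concentrated in spots without any Spp1 UMI, at 371 CPM against 52.7 with 1 in Ehmt2 fl/fl section 1 and at 1431 against 91.0 in Ehmt2 fl/fl section 2. Cd68, a lysosomal marker of macrophages, showed no such order and stayed between 182 and 200 in Ehmt2 fl/fl section 1 and between 117 and 139 in Ehmt2 fl/fl section 2. The median depth of the spots went up along with the Spp1 count, from 889 to 1079 UMIs and from 930 to 1436.5 UMIs in the Ehmt2 fl/fl sections. In the Ehmt2+/+ sections it went from 1943.5 to 7191.5 UMIs and from 834 to 1113 UMIs. The part of depth in these values was not tested.

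**Figure D3:**
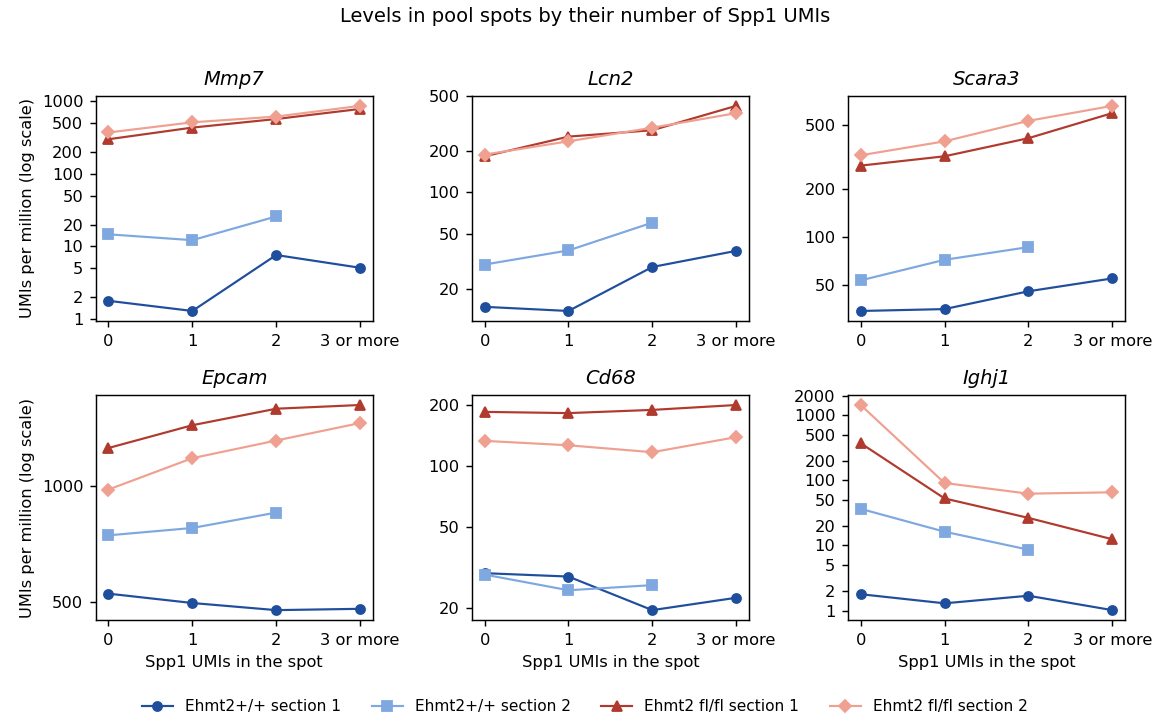
CPM (log scale) of 6 genes in pool spots grouped by their number of Spp1 UMIs, with a line for each section; the 14 spots of Ehmt2+/+ section 2 with 3 or more Spp1 UMIs are left out. In both Ehmt2 fl/fl sections Mmp7, Lcn2, Scara3 and Epcam go up with each step, Cd68 stays level and Ighj1 falls from 371 to 52.7 and from 1431 to 91.0 between no Spp1 UMI and 1.

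Among the 18 genes of osteopontin receptors, modifying enzymes and proteases, Mmp7 was the 1 gene called higher and none was called lower. Over all genes tested, 0.015% were called higher and 0.0552% lower. The receptor Cd44 stood at 73.9, 106, 708 and 507 CPM in the Spp1-rich spots of the 4 sections (Ehmt2+/+ first) and at 76.2, 81.1, 534 and 468 in other spots (log2 fold change 0.04, SE 0.15). Tgm2, the transglutaminase that crosslinks osteopontin, had a log2 fold change of 0.15 (SE 0.14), and the integrin subunits Itgav and Itgb1, which pair with others to bind osteopontin, had values of -0.04 (SE 0.34) and -0.15 (SE 0.25). The median over the list was -0.0046 beside -0.14 over all genes. The summed level of the list in Spp1-rich spots over other spots was 1.09-fold and 1.07-fold in the Ehmt2+/+ sections, both with intervals that included 1, and 1.43-fold (1.33 to 1.54) and 1.23-fold (1.14 to 1.33) in the Ehmt2 fl/fl sections. Mmp7 gave 209 of 764 and 259 of 736 list UMIs in the Spp1-rich spots of the Ehmt2 fl/fl sections, and without it the ratios there were 1.32 (1.205 to 1.44) and 1.06 (0.96 to 1.16). Of the other secreted phosphoproteins of the osteopontin family, Dmp1, Ibsp, Dspp and Mepe, Spp1-rich spots held 1, 4, 6 and 14 UMIs in the 4 sections, and none of the 4 genes was called.

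Duct and epithelial genes other than the keratins of the rule were present in Spp1-rich spots. None of the 24 genes of the duct epithelium list was called in either direction, beside 0.0702% called over all genes, and their median log2 fold change was -0.0018 beside -0.14 over all genes. Ambp, a secreted protease inhibitor precursor, and Bicc1, an RNA-binding protein of tubular epithelia, had unadjusted p values under 0.05 and are named for that, with log2 fold changes of 0.66 (SE 0.24) and 0.65 (SE 0.31). Epcam stood at 487, 842, 1679 and 1315 CPM in Spp1-rich spots against 514, 753, 1394 and 1113 in other spots. Clu, a secreted chaperone present in nearly every spot, made up most of the list, and without it the summed level in Spp1-rich spots over other spots was 0.99-fold and 1.05-fold in the Ehmt2+/+ sections and 1.12-fold (1.06 to 1.18) and 1.202-fold (1.14 to 1.26) in the Ehmt2 fl/fl sections. With digestive enzymes left out of all UMIs, these ratios were 1.01, 1.05, 1.04 and 1.16 (Ehmt2+/+ first). For the summed olfactory receptor genes the ratios over all UMIs were 0.84, 1.02, 1.09 (1.05 to 1.13) and 0.99. Sox9, the transcription factor of duct cells and of metaplastic acini, was detected in an expected 0.35%, 0.79%, 2.21% and 4.02% of Spp1-rich spots at 500 UMIs. The 95th percentile of that share over 1107 olfactory receptor genes, which serve as a background of the assay since the pancreas is not known to use them, was 0.083%, 1.08%, 1.23% and 1.57%. Sox9 was thus below this level in Ehmt2+/+ section 2 and above it in the other 3 sections.

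Spots without a UMI of Krt19 or Krt7 still held other simple epithelial keratins. Krt8 stood at 1065, 993, 675 and 1223 CPM in Spp1-rich spots and Krt18 at 1423, 1153, 854 and 776, with log2 fold changes against other spots of -0.16 (SE 0.12) and -0.11 (SE 0.12). At 500 UMIs, a UMI of the duct list without Clu was expected in 82.9% to 87.9% of Spp1-rich spots in the 4 sections. Acinar cells share Krt8, Krt18 and Epcam with ducts, so these genes mark epithelium in general.

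Macrophage genes were compared next between Spp1-rich and other spots. None of the 20 genes of the macrophage list and none of the 15 of the lipid-associated macrophage list was called in either direction or had an unadjusted p under 0.05, beside 0.0702% called over all genes, a share at which lists of this size would mostly hold no call. The median log2 fold changes were -0.20 and -0.04 beside -0.14 over all genes. Cd68 stood at 22.8, 22.8, 216 and 152 CPM in Spp1-rich spots against 28.6, 28.7, 186 and 129 in other spots (log2 fold change -0.11, SE 0.19). The log2 fold change was 0.02 (SE 0.15) for Lgals3, which encodes a galectin, -0.03 (SE 0.16) for the lipid carrier Apoe and -0.16 (SE 0.30) for Trem2, a lipid-sensing receptor of macrophages. The macrophage list summed to 209, 235, 2731 and 2018 CPM in Spp1-rich spots, with Ctss as its most abundant gene, level with Cd14 at 5 UMIs in Ehmt2+/+ section 2, and 1, 7, 0 and 0 of its 20 genes at 0. Its ratio to other spots was 0.85 (0.76 to 0.94) and 0.69 (0.46 to 0.98) in the Ehmt2+/+ sections and 1.08 (0.998 to 1.16) and 1.04 (0.96 to 1.12) in the Ehmt2 fl/fl sections, and 1.08, 0.77, 1.01 and 0.998 against other spots matched on depth. At 500 UMIs, a macrophage list UMI was expected in 10.96%, 11.7%, 68.8% and 58.8% of Spp1-rich spots and in 14.1%, 16.4%, 67.4% and 59.1% of other spots.

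Digestive enzymes took up most of the UMIs of the Ehmt2+/+ spots and less in the others. They made up 62.7% and 52.3% of the UMIs in the Spp1-rich spots of the Ehmt2+/+ sections and 16.3% and 16.4% in those of the Ehmt2 fl/fl sections, with the chymotrypsinogen Ctrb1 as the most abundant. Spp1-rich over other spots gave 1.01 and 0.998 in the Ehmt2+/+ sections and 0.74 (0.73 to 0.75) and 0.84 (0.83 to 0.85) in the Ehmt2 fl/fl sections. Of 30 enzyme genes tested, Cela2a was called lower, 24 had an unadjusted p under 0.05 and were lower, and the median log2 fold change was -0.32 beside -0.14 over all genes. Of all 19943 genes, 799 were lower at an unadjusted p under 0.05. With library sizes the median of the enzyme genes was -0.13 beside 0.01 over all genes, with DESeq2 it was -0.19, and in neither was an enzyme gene called. Prss2, a trypsinogen, had a log2 fold change of -0.34 (SE 0.11) and Cpa1, a carboxypeptidase, one of -0.30 (SE 0.11), neither of which passed the adjusted threshold.

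Of the further lists, lymphocyte genes summed to 0.62-fold, 0.92-fold, 0.52-fold (0.37 to 0.72) and 0.48-fold (0.36 to 0.62) of the other spots, and the first 2 ratios rested on 11 UMIs each. Of 10 lymphocyte genes, Cd79a and Ighm were called lower, beside 0.0552% of all genes. Red blood cell genes had 2 of 4 members called lower, with ratios of 0.21 and 0.44 in Ehmt2+/+ section 1 and Ehmt2 fl/fl section 2 and of 1.06 and 1.19 in the remaining sections. Against other spots matched on depth, the ratios were 0.44, 1.15, 1.11 and 0.44 in the 4 sections (Ehmt2+/+ first). DESeq2 called no lymphocyte or red blood cell gene. No gene was called in the lists of acinar transcription factors (11 genes), injury response of exocrine cells (24), immediate early genes (14), chemokines (15 tested), fibroblast (16), smooth muscle and pericyte (7), endothelium (9), islet (11 tested), neutrophil (10), mesothelium (5), intestine (9 tested), Schwann cell (5) and proliferation (10). In the list of 16 acute phase and Reg proteins Lcn2 was called higher and Hp lower, and in the adipocyte list Car3 was the 1 of 9 genes called. Over all genes 0.0702% were called, a share at which lists of these sizes would mostly hold no call.

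**Figure D4:**
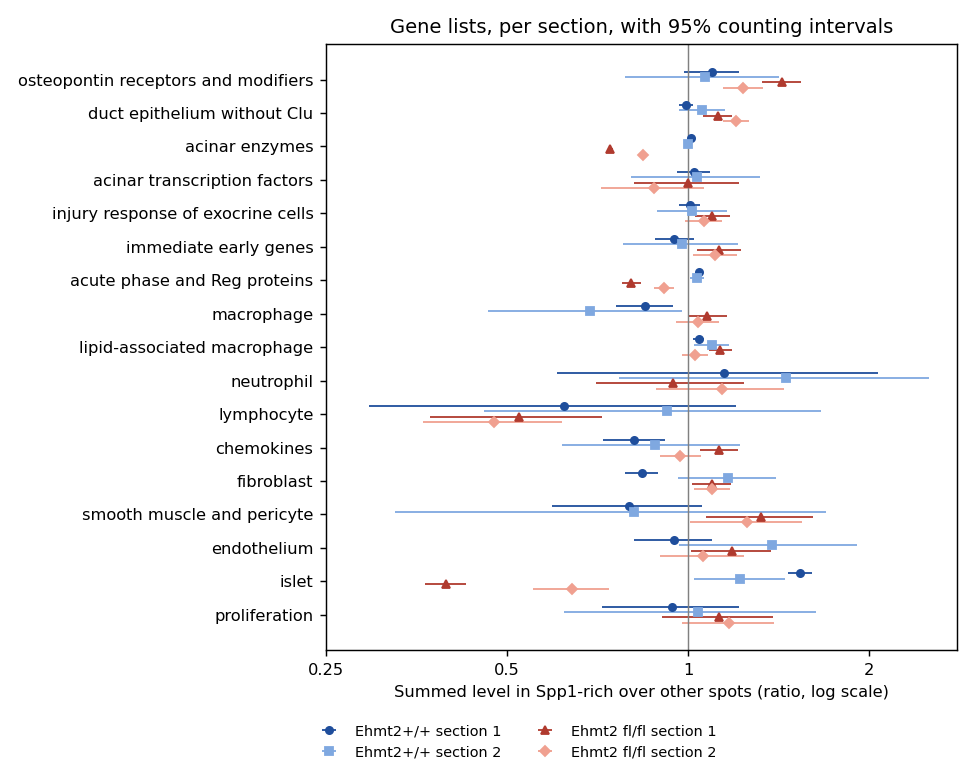
Summed level of 17 gene lists in Spp1-rich spots over other spots of the pool (ratio, log scale) for each section, with 95% counting intervals. Lists of exocrine injury genes and acinar transcription factors lie near 1, and lymphocyte genes lie below 1 in all sections, with intervals that include 1 in the Ehmt2+/+ sections. Islet genes lie above 1 in the Ehmt2+/+ sections (1.53 and 1.22) and below 1 in the Ehmt2 fl/fl sections (0.40 and 0.64).

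Spp1-rich spots with and without a keratin UMI were then compared, using 930 spots chosen by the same score among spots with a Krt19 or Krt7 UMI. Only 30 of these came from Ehmt2+/+ section 2, against 300 from each other section, so the values with keratin rest on few spots there. The spots with keratin had a median of 6667.5, 1106.5, 1030.5 and 1241.5 UMIs (Ehmt2+/+ first), in each section more than those without. Of 6473 genes tested, 7 (0.108%) were called, 1 of them higher (0.0154%) and 6 lower (0.0927%), in the spots without keratin, and the 6 lower ones are genes of endocrine cells. The count was 0 when the section was not a block, and 3 (Chga, Ins1 and Ins2) without Ehmt2+/+ section 1. None of the 20 duct list genes and 16 macrophage genes tested was called. Mmp7 stood at 3.70, 0, 858 and 966 CPM in the spots with keratin (log2 fold change without against with keratin -0.22, SE 0.12). Ins2, 1 of the 2 mouse insulin genes, stood at 629, 538, 1327 and 263 CPM without a keratin UMI and at 1053, 400.3, 3291 and 651 with one, and was thus higher without keratin in Ehmt2+/+ section 2 alone (log2 fold change -0.92, SE 0.13). By the rule for named genes, Chga, a granin of secretory granules (log2 fold change -0.95, SE 0.12), and Gcg, the glucagon gene (-0.76, SE 0.13), were lower in all 4 sections. Ins1, Iapp and Pcsk1n were called as well but not lower in every section. The splicing factor gene Cwc22 was the 1 gene called higher, with 31.9, 30.3, 73.3 and 60.2 CPM against 13.9, 0, 49.7 and 30.5 (log2 fold change 1.04, SE 0.24, adjusted p = 0.0197). Of the 7 genes, DESeq2 called Chga alone.

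The targeted gene does not check the genotype labels in these spots. Ehmt2, the histone H3 lysine 9 methyltransferase gene, gave 37 and 1 UMIs in the Spp1-rich spots of the Ehmt2+/+ sections and 5 and 6 in those of the Ehmt2 fl/fl sections, which are 18.7, 7.58, 18.3 and 19.01 CPM. The levels overlapped between genotypes, and where the probes lie relative to the deleted part is not given in the sources used here. Y-linked genes gave UMIs almost exclusively in the sections labelled Ehmt2 fl/fl: over whole sections Ddx3y gave 1, 0, 60 and 100 UMIs and Uty 0, 0, 79 and 120. The labels do not state sex, and sex and genotype cannot be told apart here. The Ehmt2+/+ sections both lay in capture area B1 and the Ehmt2 fl/fl sections in A1, which likewise cannot be told apart, whereas each of the 2 slides held 1 section of each genotype.

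Between genotypes, the Spp1-rich spots of the Ehmt2 fl/fl sections had lower levels of 24 of 27 tested digestive enzyme genes and of 6 Reg genes and higher levels of Lcn2 and Scara3. These calls were made on all 4 sections. Nearly all calls, higher as well as lower, were lost when Ehmt2 fl/fl section 1 was left out, which leaves 1 section in that group. All 391 called genes fitted there kept their direction. Of 4483 genes that passed the filter on low counts, 399 (8.9%) were called, 241 higher (5.38%) and 158 lower (3.52%) in the Ehmt2 fl/fl sections. The filter asked for at least 33.99 CPM in 2 of the 4 sections, and 1845 of the 4483 genes reached that level in no Ehmt2+/+ section and 17 in no Ehmt2 fl/fl section. Genes that entered through 1 genotype alone had their direction largely fixed by the filter. In CPM, 80.1% of the 4483 genes were higher in both Ehmt2 fl/fl sections than in both Ehmt2+/+ sections in Spp1-rich spots and 88.4% in other spots. All 399 had the same direction on both slides, but they were called from these same sections, so this direction was largely set by the calls and is no separate test. With the slide as a block, which gave 435 calls, 323 of them were also called. The split depended on the scaling. The median log2 fold change over all genes was 0.09 with TMM and 1.43 with library sizes, which gave 2475 genes higher and 67 lower, and DESeq2 gave 54 higher and 108 lower. The count was 6 without Ehmt2 fl/fl section 1, 79 without Ehmt2 fl/fl section 2, 158 without Ehmt2+/+ section 1 and 2446 without Ehmt2+/+ section 2, whose Spp1-rich spots held the fewest UMIs. In bulk sums such as these, fewer cells of a type and less RNA per cell cannot be told apart.

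The 5 genes with the largest positive fold changes, Gm21310, Gm21118, Gm20825, Gm20854 and Gm20914, all lie on the Y chromosome and belong to near-identical multicopy families, so that counts of single copies are uncertain. Gm21310 had 0 UMIs in both Ehmt2+/+ sections and 115 and 322 in the Ehmt2 fl/fl sections. The 5 largest negative ones were pancreatic secretory genes. Cela2a stood at 66203, 61592, 5162 and 4372 CPM in the 4 sections (Ehmt2+/+ first), with no overlap between genotypes, lower CPM in both Ehmt2 fl/fl sections being found for 2.72% of the 4483 genes (log2 fold change -5.01, SE 0.44, adjusted p = 0.00264). Reg2 and Reg3b, secreted lectins of the Reg family, had log2 fold changes of -4.75 (SE 0.50) and -4.27 (SE 0.45), Dmbt1, a scavenger receptor of secretory epithelia, one of -4.40 (SE 0.76), and Pnlip, pancreatic lipase, one of -4.25 (SE 0.62). Of 35 enzyme genes, 27 passed the filter, 2 of them through the Ehmt2+/+ sections alone. Of these 27, 24 were lower and 1, the trypsinogen Prss1, was higher, beside 3.52% lower and 5.38% higher over all genes. With library sizes 24 were lower again, beside 67 of all 4483 genes. Of 9 acute phase and Reg genes that passed the filter, 6 were lower and 3 higher, beside 3.52% and 5.38% of all genes. Lcn2 was among these 3 (log2 fold change 2.05, SE 0.36). Hp, another of the 3, passed the filter through the Ehmt2 fl/fl sections alone.

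Mmp7, at 7.09, 22.8, 766 and 821 CPM, passed the filter through the Ehmt2 fl/fl sections alone and rested on 14 and 3 UMIs in the Ehmt2+/+ sections, so that its levels are given as a description. Scara3 was 2.19 higher on the log2 scale in the Spp1-rich spots of the Ehmt2 fl/fl sections (SE 0.35, adjusted p = 0.0092). Of the 18 genes of the osteopontin list, 5 passed the filter, 2 of them, Mmp7 and Mmp9, through the Ehmt2 fl/fl sections alone. Cd44 and Tgm2 were called higher, beside 5.38% of all genes. Mmp7 and Mmp9 were called as well, in the direction that the filter favours, and do not support a change of the list. Of the 20 macrophage genes, 15 passed the filter, and 13 of these did so through the Ehmt2 fl/fl sections alone. Of the 15, 10 were called higher, beside 5.38% of all genes. With library sizes 15 were called higher and with DESeq2 3, and since the filter favours this direction the counts do not support a change of the list. Ctss, a lysosomal protease of antigen-presenting cells, stood at 31.9, 37.9, 649 and 444 CPM (log2 fold change 2.68, SE 0.38). Trem2, which passed the filter through the Ehmt2 fl/fl sections alone, stood at 2.02, 0, 62.3 and 44.4 CPM. Of 16 chemokine genes, 7 passed the filter, 5 of them through the Ehmt2 fl/fl sections alone. Ccl6 and Ccl9 were called higher, beside 5.38% of all genes. Cxcl2, 1 of those 5, was called as well, in the direction that the filter favours, so the counts do not support a change of this list either. Of 24 duct list genes, 16 passed the filter, 7 of them through the Ehmt2 fl/fl sections alone. Among the 16, 3 were called higher and 2, Clu and Krt18, lower, beside 5.38% and 3.52% of all genes. The 3 called higher, Car2, Ambp and Tspan8, were all among those 7. Their direction was thus largely fixed by the filter, and they do not support a change of the list. With library sizes 7 were higher and Clu and Krt18 were no longer called, with 15088, 10708, 11772 and 9257 CPM for Clu and 1423, 1153, 854 and 776 CPM for Krt18. The other spots of the same sections also lay apart by genotype, with Ctss at 40.5, 44.9, 614 and 422 and Cela2a at 64845, 62458, 7835 and 6470 CPM.

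**Figure D5:**
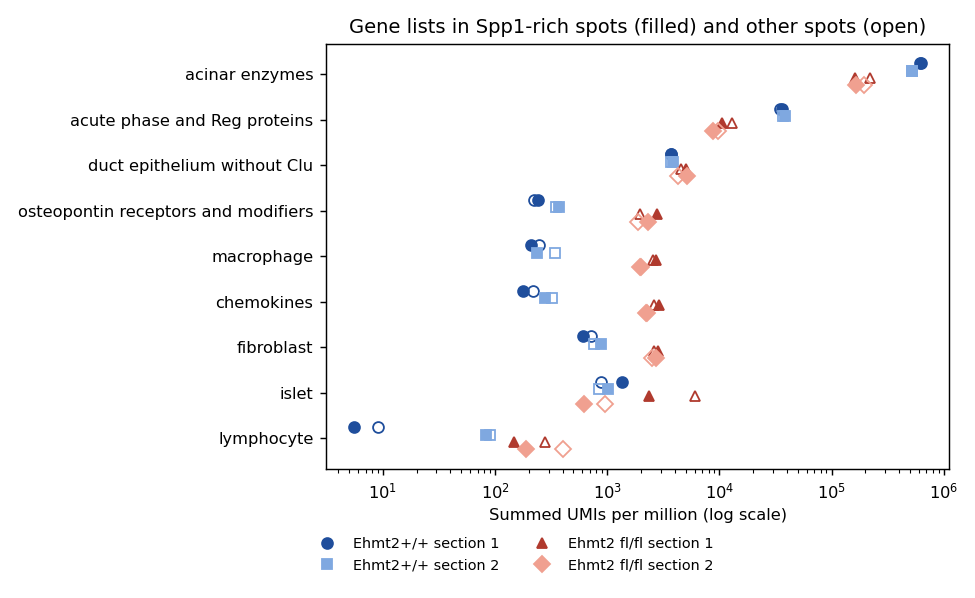
Summed CPM (log scale) of 9 gene lists in Spp1-rich spots (filled) and other spots (open) of each section. Enzyme and acute phase lists lie lower and macrophage, chemokine and osteopontin receptor lists higher in both Ehmt2 fl/fl sections than in both Ehmt2+/+ sections, the latter an order that 66.3% of single genes share in Spp1-rich spots. Filled over open symbols range from 0.40 to 1.53-fold for islet and from 0.48 to 0.92-fold for lymphocyte genes. The range is 0.69 to 1.08-fold for macrophage, 0.74 to 1.01-fold for enzyme and 1.07 to 1.43-fold for osteopontin receptor lists.

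Whether the contrast of Spp1-rich with other spots itself differed between genotypes was tested as an interaction. Of 19943 genes, 54 (0.271%) were called, 51 of them with a higher contrast in the Ehmt2 fl/fl sections (0.256%) and 3 with a lower one (0.015%), but the median over all genes was 0.42 in the same direction, DESeq2 called none (110 higher and 54 lower at an unadjusted p under 0.05), and none was called without Ehmt2+/+ section 1, 8 without Ehmt2+/+ section 2 and 14 without Ehmt2 fl/fl section 2. Against other spots matched on depth, 5 were called, among them Ins1, Ins2 and Iapp but not Sox9. The 3 genes with a lower contrast were islet hormones. Ins2 stood at 629 against 410 and 538 against 399 CPM in the Ehmt2+/+ sections, higher in Spp1-rich spots, and at 1327 against 3642 and 263 against 443 in the Ehmt2 fl/fl sections, lower in Spp1-rich spots (log2 difference -1.59, SE 0.17, adjusted p = 1.36e-16). Ins1 (log2 difference -1.78, SE 0.20) and Iapp (-1.60, SE 0.23) showed the same. Sox9 stood at 5.57 against 8.79 and 15.2 against 14.6 CPM in the Ehmt2+/+ sections and at 44.0 against 28.3 and 85.5 against 29.7 in the Ehmt2 fl/fl sections (log2 difference 1.99, SE 0.50, adjusted p = 0.0338), on 11, 2, 12 and 27 UMIs in Spp1-rich spots.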

How the data were processed

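Tissue sections fixed in formalin and embedded in paraffin were processed by the authors with CytAssist Visium. The deposited values are counts of UMIs per spot and probe target from Space Ranger (2.0.1 in the file headers; mm10 genome, mouse probe set), not normalized and including positions off tissue. Of 32589 features, 304 deprecated ones were left out of tests (0.477% to 0.803% of UMIs). Counts of Spp1-rich spots, of the other spots and of the keratin-positive comparison spots were summed per section and tested with the quasi-likelihood functions of edgeR 4.0.16 after TMM scaling, keeping genes that passed filterByExpr (min.count 10) and adjusting p by Benjamini-Hochberg, with the section as a block where both sets came from it, and checked on simulated counts. With the common dispersion of the data, 42 of 198 genes simulated at a log2 fold change of 1 were called for Spp1-rich against other spots, and 147 of 200 at 2. Between genotypes 0 of 121 and 95 of 123 were called. Most changes of the smaller size would thus be missed. Spp1, Krt19 and Krt7 were not tested. CPM of named genes were taken over the retained features, those of Spp1 over all features. Intervals are 95% and cover counting error only, and UMIs of 1 section are not replicates. Shares at 500 UMIs are expected values without replacement.

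Named genes were the 15 highest and 10 lowest called genes with the same sign in all sections and at least 20 CPM for Spp1-rich against other spots, the 5 highest and 5 lowest between genotypes and for the interaction, the 8 highest and 8 lowest by the first rule for the keratin comparison, the 4 most abundant and any called of each of 24 lists, and a fixed set. Members and lists were chosen with earlier results of these data known. All sections use barcodes from 1 fixed list, so that pairs of sections share 13898 to 14336 barcodes and 2 to 13 of the barcodes of Spp1-rich spots. Gene positions came from GENCODE M21 by Ensembl identifier. No label states that sections are separate animals, and p-values then measure the spread between these sections. Alternatives were DESeq2 1.42.0, other scalings, filters and choices of spots, and leaving out each section.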

Additional observations from a re-analysis of the deposited data

Results flagged for a closer look

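The contrast of Spp1-rich with other spots differed between genotypes by the interaction test for 8 named genes, among 54 called. Without the condition on keratins, 2 other genes were called and none of these 54. None of the 54 was called with DESeq2, with no replicate block, with 150 spots per section or without Ehmt2+/+ section 1, 5 genes were called with other spots matched on depth (Ins1, Ins2 and Iapp but not Sox9), and the median over all genes was 0.42. The log2 difference, Ehmt2 fl/fl minus Ehmt2+/+, was 8.67 for Sorcs2, 3.92 for Tk1, 2.11 for Ptafr, 1.99 for Sox9, 1.89 for Iqsec1, -1.78 for Ins1, -1.60 for Iapp and -1.59 for Ins2. Sorcs2, a sorting receptor, had 0 UMIs in the Spp1-rich spots of both Ehmt2+/+ sections and 14 and 19 in the Ehmt2 fl/fl sections, so its fitted value depends on the prior count and is no bound. Tk1, the thymidine kinase of dividing cells, rested on 1, 0, 15 and 21 UMIs, Ptafr, the receptor of platelet-activating factor, on 11, 2, 33 and 26, and the exchange factor gene Iqsec1 on 21, 0, 16 and 20.

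Summed lists whose ratio of Spp1-rich to other spots lay on one side of 1 in both Ehmt2+/+ sections and on the other in both Ehmt2 fl/fl sections were macrophage (difference of the mean log2 ratios 0.47), acinar transcription factors (-0.14), immediate early genes (0.22), acute phase and Reg proteins (-0.28), smooth muscle and pericyte (0.68) and islet (-1.44). These differences were not tested. With other spots matched on depth, the Ehmt2+/+ ratios of 3 lists moved across 1, from 0.85 to 1.08 in section 1 for macrophage, from 0.80 to 1.33 in section 1 for smooth muscle and pericyte, and from 0.95 and 0.98 to 1.01 and 1.05 in sections 1 and 2 for immediate early genes. The macrophage ratio in Ehmt2 fl/fl section 2 moved from 1.037 to 0.998.

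Spots under 500 UMIs, which no comparison used, held 63 and 185 Spp1 UMIs in the Ehmt2+/+ sections and 312 and 295 in the Ehmt2 fl/fl sections.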

How the results depend on the processing

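Counts of called genes depended on the processing, and of the 399 genes called between genotypes 398 kept their direction with library sizes; of the single genes named, 551 values kept their side of the threshold, 218 lost the call and 8 gained it. For Spp1-rich against other spots (14 called) the count was 5 with DESeq2, 3 with 150 spots per section, 4 without the condition on keratins, 1 with spots chosen on 1 of 2 equal parts of the UMIs (Ighj1), 0 with the mean over spots (140 higher and 599 lower at an unadjusted p under 0.05) and 0 with no replicate block (1 and 97), and 4 to 16 when each section was left out. Between genotypes (399) it was 162 with DESeq2, 2542 with library sizes, 85 without the filter on low counts, 220 with 150 spots, 964 with at least 1000 UMIs per spot, 169 without the keratin condition and 6 to 2446 with a section left out. For the interaction (54) it was 0 with DESeq2, 14 with library sizes, 0 with no replicate block (412 and 2 at an unadjusted p under 0.05), 0 with 150 spots (1375 and 74), 10 with at least 1000 UMIs, 2 without the keratin condition, 5 with other spots matched on depth, an alternative chosen after seeing the data like the slide as a block, and 0 to 74 with a section left out. For spots without against with keratin (7) it was 1 with DESeq2, 0 with no replicate block (19 and 15) and 3 to 7 with a section left out. Unthinned differences in the share of spots with a UMI, in percentage points, were larger than at 500 UMIs, being 5.58 for Cd44, 1.66 for Cd68, 7.84 for Lgals3, 3.37 for Apoe and 10.6 for Epcam. The cause of these changes was not tested. The 6 list ratios recomputed (osteopontin, duct, macrophage, enzyme, lymphocyte and islet lists) moved by less than the spread between sections under each alternative. Between genotypes the slide, which held 1 section of each genotype, was used as a replicate block, and this gave 435 calls (229 higher and 206 lower), 323 of them among the 399. The replicate numbers follow the order of deposit and coincide with the slides, so that this block also pairs sections of the same number. The Spp1-rich spots of Ehmt2+/+ section 2 held 132719 UMIs against 1985534 in those of section 1, and the part of depth in the counts between genotypes was not tested.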
